A study of Mus musculus with 2 samples.

Results

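The genes described here are 37 members of the secretory pathway of the endoplasmic reticulum (ER), out of 32285 genes in the files. They were set as a list of names, with earlier results of these data known. All 37 were found by symbol. They were followed in living mononuclear cells of mouse plantaris muscle by droplet single-cell RNA sequencing, with 1 library of tenotomy muscles and 1 of sham control muscles. The donors were 5 male C57BL/6 mice, 12 weeks old and with no genetic change named: in each mouse 1 plantaris was subjected to tenotomy and the opposite plantaris served as sham, and the 5 muscles of each kind were pooled after 4 days. Digested cells were sorted as positive for Calcein AM, a dye that living cells retain, and negative for propidium iodide, which enters dead cells, so intact muscle fibres lie outside the sample. The sources used here do not name the tendon that was cut.

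The files held 8463 sham and 11950 tenotomy barcodes, of which 7548 and 10917 were kept, with medians of 4851 and 5859 unique molecular identifiers (UMIs, single captured RNA molecules) per cell. Cells were assigned to 16 classes by fixed marker genes, and each class name ends in -like because it was rebuilt here and not taken from the authors. In 8 classes both libraries had at least 50 cells. Class makeup differed strongly between the libraries: monocyte/macrophage-like cells were 369 in sham and 4627 in tenotomy. The libraries shared 29 barcodes among kept cells.

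Proteins bound for secretion enter the ER through the Sec61 channel, helped by the translocon-associated proteins (Ssr genes) and Tram1, and lose their signal peptide to the signal peptidase (Spcs genes). The oligosaccharyltransferase (Rpn1, Rpn2, Dad1, Ddost) attaches glycans. Chaperones, disulfide isomerases and lectins then fold the chain, and prolyl isomerases and hydroxylases act on collagen, the main cargo of fibroblasts. COPII vesicles carry folded cargo to the Golgi, and KDEL receptors return escaped chaperones. When unfolded proteins accumulate, the unfolded protein response raises transcription of many chaperone genes through ATF6, XBP1 and ATF4.

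One class of response sites for that pathway is readable in the promoters. In RefSeq (GRCm38.p6), windows from 250 bases before to 50 after the transcription start were found for 30 of the 37 members. Fkbp10, Kdelr2, Manf, Sec61a1, Spcs3, Ssr2 and Tram1 had none. Both strands were searched for 5 motifs. The ER stress response element (ERSE, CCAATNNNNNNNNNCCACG, the site of ATF6 with NF-Y) was in the windows of 6 of the 30 members, against 0.137% of 27025 genes. The sites are shown because they mark a group of folding members, with the fixed letters in capitals, each read 5′ to 3′ on the strand that carries the motif, with the distance of its outermost base from the RefSeq start:

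Calr, 162 bases before the start: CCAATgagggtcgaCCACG
Canx, 145 bases before the start: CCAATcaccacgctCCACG
Creld2, 126 bases before the start: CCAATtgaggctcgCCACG
Hsp90b1, 212 bases before the start: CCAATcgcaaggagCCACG
Hsp90b1, 107 bases before the start: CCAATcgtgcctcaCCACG
Hspa5, 65 bases before the start: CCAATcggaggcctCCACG
Pdia6, 98 bases before the start: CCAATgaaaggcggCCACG

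All 6 genes belong to the folding members, and Hsp90b1 carried 2 sites. ERSE-II (ATTGG and CCACG with 1 base between them) was in the window of Dnajb11 alone among the members (0.0444% of genes). The core GACGTGG of the XBP1 site was in 6 members, namely Fkbp14, Kdelr3, Pdia6, Sec23a, Sec24d and Ssr1, against 2.73% of genes. CCAAT, which every ERSE contains and ERSE-II holds on the opposite strand, was in 22 members against 41.1% of genes. The cyclic AMP response element TGACGTCA was in 0 of 30 members, against 2.03% of genes. The matches are descriptions of letters in these windows, and a window without a match shows only that the letters are not in it. The 250 bases before the start are given for 6 members on which the results below turn, in the direction of transcription, with whole ERSE and GACGTGG matches on either strand in capitals and all other bases in lower case. The start is that of RefSeq, which for Hspa5, Hsp90b1, Pdia6 and Sec61b lies inside the gene model of GENCODE, from which gene positions below are taken:

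Hspa5, chr2:34771840-34772089 (plus strand): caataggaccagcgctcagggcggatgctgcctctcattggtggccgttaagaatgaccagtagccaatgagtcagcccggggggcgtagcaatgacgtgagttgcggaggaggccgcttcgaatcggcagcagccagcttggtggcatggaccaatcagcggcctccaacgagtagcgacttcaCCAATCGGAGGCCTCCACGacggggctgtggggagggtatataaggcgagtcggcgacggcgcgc
Hsp90b1, chr10:86705445-86705694 (minus strand): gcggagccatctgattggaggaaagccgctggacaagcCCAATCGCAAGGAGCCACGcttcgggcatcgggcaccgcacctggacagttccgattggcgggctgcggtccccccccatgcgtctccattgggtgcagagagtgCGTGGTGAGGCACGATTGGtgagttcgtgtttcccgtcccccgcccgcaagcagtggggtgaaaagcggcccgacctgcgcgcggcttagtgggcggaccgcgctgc
Pdia6, chr12:17266339-17266588 (plus strand): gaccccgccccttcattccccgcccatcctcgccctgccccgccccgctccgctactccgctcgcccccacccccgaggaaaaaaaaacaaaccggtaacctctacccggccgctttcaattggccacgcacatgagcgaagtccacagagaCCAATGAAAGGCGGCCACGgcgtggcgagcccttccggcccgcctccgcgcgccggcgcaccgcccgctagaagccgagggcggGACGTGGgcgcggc
Kdelr3, chr15:79516158-79516407 (plus strand): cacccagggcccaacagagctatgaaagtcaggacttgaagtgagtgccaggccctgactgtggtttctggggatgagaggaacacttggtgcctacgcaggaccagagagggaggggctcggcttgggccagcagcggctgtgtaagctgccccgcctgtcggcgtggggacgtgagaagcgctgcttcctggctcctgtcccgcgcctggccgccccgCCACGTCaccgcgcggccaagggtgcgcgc
Sec61b, chr4:47474411-47474660 (plus strand): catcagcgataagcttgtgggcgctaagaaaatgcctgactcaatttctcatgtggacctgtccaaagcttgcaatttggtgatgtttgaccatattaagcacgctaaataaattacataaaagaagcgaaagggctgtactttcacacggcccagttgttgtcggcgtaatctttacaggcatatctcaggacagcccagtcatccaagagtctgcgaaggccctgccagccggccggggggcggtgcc
Ssr4, chrX:73786773-73787022 (plus strand): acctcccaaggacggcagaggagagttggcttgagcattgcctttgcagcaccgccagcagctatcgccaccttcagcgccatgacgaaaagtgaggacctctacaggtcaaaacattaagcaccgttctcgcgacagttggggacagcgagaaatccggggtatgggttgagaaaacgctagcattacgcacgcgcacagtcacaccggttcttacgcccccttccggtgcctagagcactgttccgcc

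The Sec61b and Ssr4 stretches hold neither motif, and these 2 genes were among the members with the larger folds described next.

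The members stood at a higher level in mesenchymal progenitor-like cells (fibroblasts and fibro-adipogenic progenitors) of the tenotomy library. The class had 2085 sham and 1836 tenotomy cells, with medians of 8275 and 14418 UMIs per cell. Each value is 1 library against 1 other, with no replicate, so nothing could be tested over samples, and treatment and library cannot be told apart. Levels are in CPM, the UMIs of a gene scaled to the same total for each class and library. Folds are tenotomy over sham, and brackets hold 95% intervals, which cover counting error alone. A gene was measured in a class with at least 25 UMIs over both libraries and a mean CPM of at least 20. A gene low in 1 library could thus pass through its level in the other. Summed, the 37 members took 0.662% of the UMIs of the class in sham and 1.48% in tenotomy, 2.24-fold higher (2.22 to 2.25). Of the 37 members, all measured, 22 reached 2-fold higher and 0 reached 2-fold lower, against 13.3% of all 5755 measured genes higher and 13.4% lower. At least 1.5-fold higher were 33 members, against 26.5% of all genes. The median log2 fold was 1.08 for the members and 0.05 for all measured genes. Depth per cell moved with the library, and with every cell thinned to 1000 UMIs 17 members were at least 2-fold higher. Without the barcodes found in both libraries the count was 22. The share of all genes under these settings is not given here, so the counts show only how the number of members moved. In thinned cells the members took a median of 0.6% of UMIs per cell in sham and 1.2% in tenotomy, and the middle 80% of cells spanned 0.3% to 1% and 0.6% to 2.1%.

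**Figure D1:**
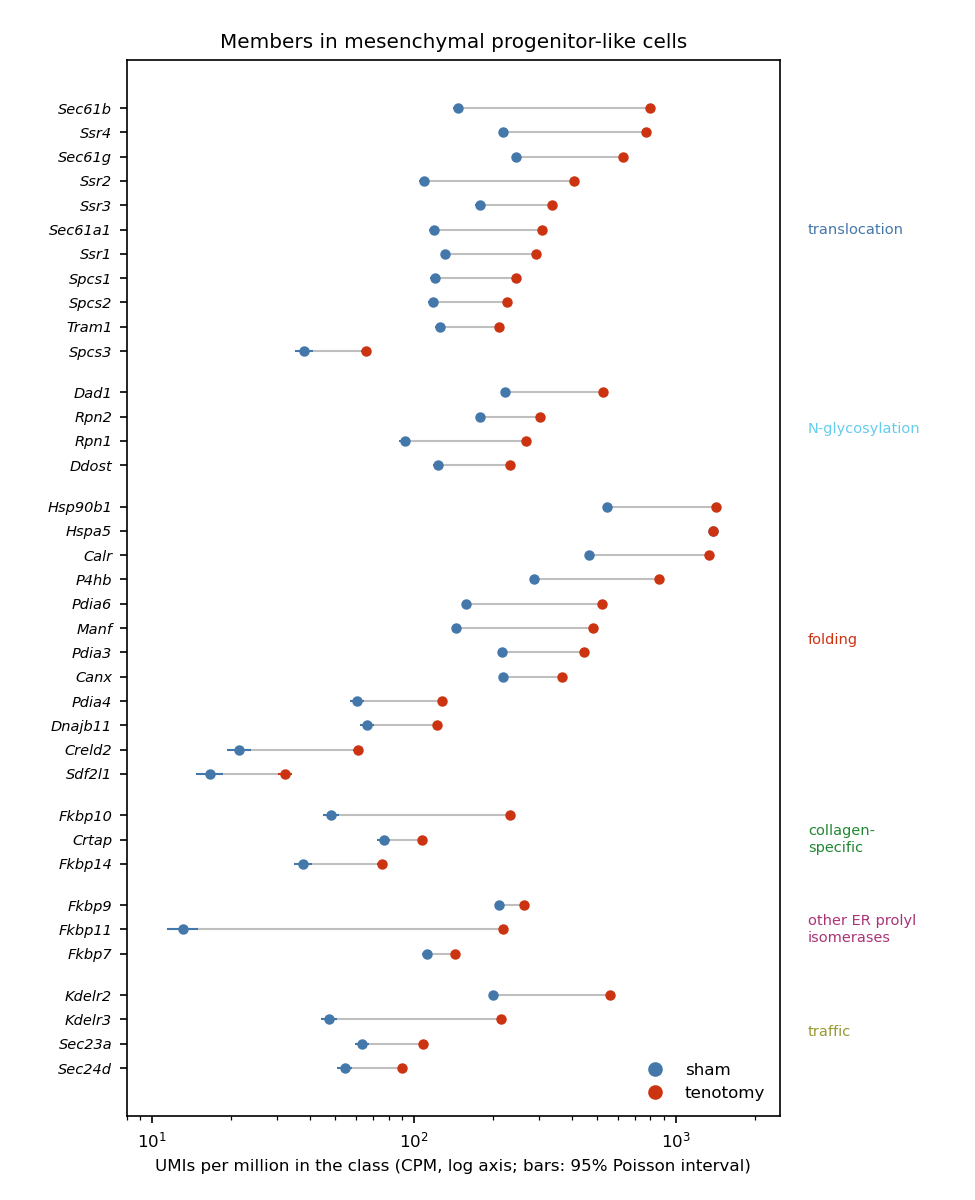
Level of each member in mesenchymal progenitor-like cells (x axis, CPM on a log axis) in the sham (blue) and tenotomy (red) library, by role, with 95% Poisson intervals that are often smaller than the points. All members but Hspa5 lie further right in tenotomy, and the longest line is that of Fkbp11, from 13.1 to 219 CPM.

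The translocation members were all higher, from 1.69-fold (Tram1) to 5.41-fold (Sec61b), with a median log2 fold of 1.14. Sec61b encodes the beta subunit of the channel (mm10, chromosome 4, 47474658 to 47483242). Its level was 147 CPM in sham against 796 CPM in tenotomy, 5.41-fold higher (5.19 to 5.64). Sec61a1, which forms the pore, went from 119 to 307 CPM, and Sec61g, the gamma subunit, from 246 to 627 CPM. Both were thus at about the same fold, 2.58 (2.46 to 2.71) and 2.55 (2.46 to 2.63), below the fold of the beta subunit. Among the translocon-associated genes, Ssr2 went from 109 to 407 CPM (3.74-fold, 3.56 to 3.93) and Ssr4 from 219 to 771 CPM (3.52-fold, 3.40 to 3.65). Their partners Ssr1 and Ssr3 were at lower folds, 2.21 (2.11 to 2.32) and 1.89 (1.81 to 1.96). The signal peptidase genes Spcs1, Spcs2 and Spcs3 lay at 2.04, 1.92 and 1.72. So genes of the same complex did not share a fold, neither in the channel nor among its partners.

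The 4 oligosaccharyltransferase members were 1.69-fold to 2.92-fold higher, with 2 of 4 at least 2-fold. Rpn1, which encodes ribophorin I, was at 92.2 CPM in sham against 269 CPM in tenotomy, 2.92-fold higher (2.76 to 3.08). Dad1 was 2.38-fold higher (2.29 to 2.46), from 222 to 528 CPM. Rpn2 and Ddost were 1.69-fold and 1.87-fold higher.

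Of the 12 folding members, 11 were higher by 1.68-fold (Canx) to 3.34-fold (Manf), and Hspa5 was level. Hspa5 encodes BiP, the abundant Hsp70 of the ER lumen (chromosome 2, 34771970 to 34777547). It was at 1389 CPM in sham against 1385 CPM in tenotomy, a fold of 0.997 (0.982 to 1.01). Hsp90b1, the ER member of the Hsp90 family, went from 545 to 1429 CPM (2.62-fold, 2.56 to 2.68). The lectin chaperone Calr went from 465 to 1338 CPM (2.88-fold), whereas its membrane-bound relative Canx went from 219 to 367 CPM (1.68-fold, 1.62 to 1.74). Manf, a secreted ER protein that binds BiP, was 3.34-fold higher (3.2 to 3.49), from 145 to 485 CPM. The disulfide isomerases Pdia6 and P4hb, the second of which is also a subunit of collagen prolyl 4-hydroxylase, went from 158 to 523 CPM (3.30-fold, 3.17 to 3.44) and from 287 to 860 CPM (3.00-fold, 2.91 to 3.09). Pdia3 and Pdia4 were nearer to 2-fold, at 2.07 and 2.11. The BiP cochaperone genes Dnajb11 and Sdf2l1 were 1.85-fold and 1.94-fold higher, and Creld2 2.84-fold (2.54 to 3.19) from 21.5 CPM.

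Hspa5 held 38.7% of the UMIs of the folding members in sham and 19.3% in tenotomy. The folding members together were 2.0-fold higher (1.98 to 2.02) and the translocation members 2.76-fold (2.72 to 2.80). Without Hspa5, a choice made after its value was seen, the folding sum was 2.63-fold higher (2.60 to 2.66). By the median the order was the opposite, 1.23 on the log2 scale for folding and 1.14 for translocation, so the groups were not separated in a way that held for both measures. The 6 folding genes with an ERSE had folds of 0.997 (Hspa5), 1.68 (Canx), 2.62 (Hsp90b1), 2.84 (Creld2), 2.88 (Calr) and 3.30 (Pdia6). The 5 folding members with a window but no ERSE were at 1.85 (Dnajb11), 1.94 (Sdf2l1), 2.07 (Pdia3), 2.11 (Pdia4) and 3.00 (P4hb). Of these, Dnajb11 holds ERSE-II. Manf, at 3.34, had no window. The ranges with and without an ERSE overlapped, and a link between the sites and the folds was not tested.

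The collagen-specific members differed among themselves. Fkbp10, which encodes FKBP65, a prolyl isomerase and collagen chaperone (chromosome 11, 100415697 to 100424824), was at 48.2 CPM in sham against 232 CPM in tenotomy, 4.81-fold higher (4.47 to 5.18). Fkbp14, the isomerase FKBP22, went from 37.6 to 75.4 CPM (2.01-fold, 1.84 to 2.19). It lay just inside the 2-fold limit, and Sdf2l1 at 1.94 was the nearest member below it. Crtap, the scaffold of the prolyl 3-hydroxylation complex, went from 76.6 to 107 CPM, 1.40-fold higher (1.31 to 1.49). Its catalytic partner P3h1, which is no member, went from 29.8 to 127 CPM (4.27-fold, 3.89 to 4.70). The median log2 fold of the group was 1.0, and it was 1.29 with P4hb counted in the group.

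Of the other ER prolyl isomerases, Fkbp11 had the highest fold of all 37 members. Fkbp11, a membrane-anchored isomerase known from secretory cells (chromosome 15, 98724366 to 98728198), was at 13.1 CPM in sham against 219 CPM in tenotomy, 16.8-fold higher (14.7 to 19.3). With each cell thinned to 1000 UMIs, which left out 60 sham and 27 tenotomy cells, a Fkbp11 UMI was in 1.28% of sham and 14.3% of tenotomy cells of the class. Without thinning the shares were 9.26% and 61.2%. In monocyte/macrophage-like cells, which served as a level for free RNA, the thinned shares were 0.287% and 0.198%, with 0.813% and 1.17% before thinning and medians of 6488 and 6186 UMIs. Fkbp7 and Fkbp9, by contrast, went from 112 to 144 CPM (1.28-fold, 1.21 to 1.35) and from 212 to 262 CPM (1.24-fold, 1.19 to 1.29).

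The traffic members split into receptors and coat. The KDEL receptor genes Kdelr2 and Kdelr3 went from 201 to 561 CPM (2.79-fold, 2.69 to 2.90) and from 47.5 to 216 CPM (4.54-fold, 4.22 to 4.90). Sec23a and Sec24d, COPII coat genes whose loss impairs collagen secretion and skeletal development, had smaller folds of 1.70 (1.59 to 1.82) and 1.65 (1.53 to 1.78).

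The other genes of the pathway were read from lists of non-members, and their counts stand against the same 13.3% of all measured genes at least 2-fold higher and 13.4% lower. Of 13 measured collagen biosynthesis genes, 8 reached 2-fold higher and 0 reached 2-fold lower (median log2 fold 1.26). P4ha3, an alpha subunit of prolyl 4-hydroxylase, went from 2.61 to 54.6 CPM (20.9-fold, 15.5 to 28.9), and the collagen chaperone Serpinh1 from 659 to 1883 CPM (2.86-fold). Among further translocation genes 5 of 14 passed 2-fold higher (median 0.77), led by Srprb at 2.90 and Serp1 at 2.86. Further glycosylation genes had 4 of 12 higher and a median of 0.65, led by Ostc at 3.47 and Mlec at 3.09. Further folding genes had 6 of 17 higher and a median of 0.59, led by Pdia5 at 5.97 and Rcn3 at 3.27. ER to Golgi coat and cargo receptor genes had 5 of 20 higher and a median of 0.64, led by Surf4 at 3.39 and Sec13 at 2.85. Golgi to ER retrieval genes had 5 of 12 higher and a median of 0.87, led by Cope at 2.78 and Copb2 at 2.52. None of the measured genes in these 5 groups was at least 2-fold lower. Ero1b, an ER oxidase gene of the further folding list that was too low to be measured, went from 6.59 to 3.25 CPM (0.494-fold, 0.373 to 0.652).

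The matrix cargo and unfolded protein response lists differed in their medians, with ER-associated degradation between them. Of 15 measured matrix cargo genes, 10 reached 2-fold higher and 1 reached 2-fold lower (median 1.35), and their sum went from 19608 to 53274 CPM. Postn, a matrix protein gene that also served to define a state below, was 354-fold higher (313 to 403). The list also holds Col3a1, a marker used to define the class. Col12a1 was 10.1-fold higher (9.26 to 11.1), and Col15a1 went from 744 to 191 CPM (0.257-fold). ER-associated degradation genes had 1 of 11 at least 2-fold higher, Selenos at 2.02, which is near the share of all genes, and a median of 0.43. Of 13 measured unfolded protein response genes, 0 reached 2-fold higher and 2 reached 2-fold lower (median -0.10). This list holds no member, so the folding members with an ERSE, whose folds are given above, are not counted in it. Among genes of this list under the CPM limit, 3 were at least 2-fold higher. Asns, asparagine synthetase and a target of ATF4, had a mean just under that limit and went from 5.88 to 32.5 CPM (5.53-fold, 4.49 to 6.87), from 99 and 1019 UMIs. Chac1 and Trib3, from at most 60 UMIs in either library, were 5.37-fold (2.33 to 15.2) and 2.01-fold (1.15 to 3.75) higher. Among the measured genes, Atf3 went from 422 to 79.4 CPM (0.188-fold, 0.18 to 0.197) and Ppp1r15a, the phosphatase subunit that ends the translation block, from 425 to 89.8 CPM (0.211-fold, 0.202 to 0.221). Atf4 was 0.565-fold (0.549 to 0.581), Xbp1 1.06-fold (1.01 to 1.12) and Herpud1 1.02-fold (0.967 to 1.08), whereas Hyou1, an ER chaperone, was 1.58-fold (1.41 to 1.79) and Edem1 1.98-fold (1.81 to 2.17). Immediate early and heat shock genes, a list added after the data were seen, moved with Atf3, Ppp1r15a and Atf4 in this class. Of its 11 genes, 10 were at least 2-fold lower and 1, Ier3, higher, and the sum went from 13512 to 3514 CPM. The part of that difference in the values of Hspa5 and of the unfolded protein response genes was not tested.

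**Figure D2:**
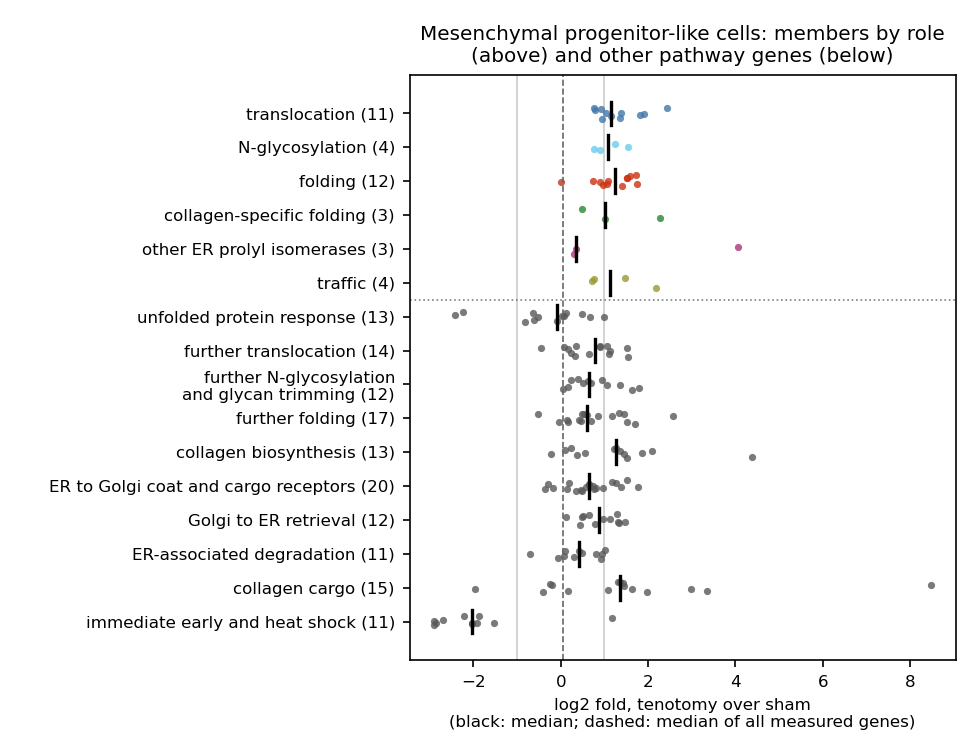
Log2 fold, tenotomy over sham, of each measured gene (points) in mesenchymal progenitor-like cells, for the members by role (coloured) and for other genes of the pathway (grey), with the number of genes in brackets, the median as a black bar and the median of all measured genes, 0.05, as a dashed line. The medians of 5 of the 6 member roles lie at or above 1.0. That of the unfolded protein response list, which holds no member, lies at -0.10 and that of immediate early and heat shock genes at -2.04.

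Within the class, cells were sorted into states by marker UMIs, and the states were unequal between the libraries. Smoc2-type cells were 1411 in sham and 310 in tenotomy, and Pi16-type cells 343 and 144. Activated cells (Postn, Tnc, Cthrc1, Lrrc15) were 2 and 432, and cycling cells 19 and 683, so these states exist almost wholly in the tenotomy library. The members took 0.683% of UMIs in Smoc2-type cells of sham and 1.0% in tenotomy, and 0.622% and 0.946% in Pi16-type cells. In the tenotomy library they took 1.54% in activated and 1.59% in cycling cells. In each state compared, the tenotomy share was above every sham share, and the activated and cycling states were above the others.

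**Figure D3:**
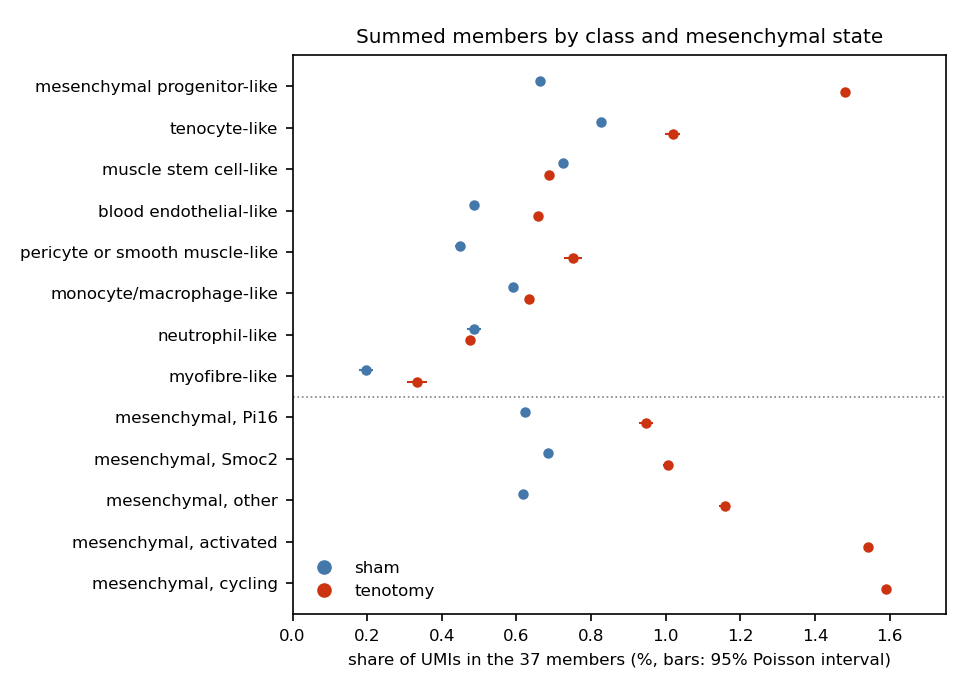
Share of UMIs taken by the 37 members (x axis, percent, from 0) in each compared class and, below the dotted line, in states of mesenchymal progenitor-like cells, for the sham (blue) and tenotomy (red) library with 95% Poisson intervals. The whole mesenchymal class goes from 0.662% to 1.48%, and the activated and cycling states, shown for tenotomy only, lie at 1.54% and 1.59%.

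Within a state, most members had smaller folds than over the class. Within Smoc2-type cells, 7 of 36 measured members were at least 2-fold higher, against 5.30% of 5548 genes, and 19 at least 1.5-fold, against 14.1%. Within Pi16-type cells, 9 of 37 were at least 2-fold higher, against 3.67% of 5674 genes, and 20 at least 1.5-fold, against 12.6%. In neither state was any member 2-fold lower (0 of 36 and 0 of 37), against 6.61% and 4.62% of genes. The median log2 fold was 0.62 and 0.61, against -0.03 and -0.04 for all genes. In the cells with no clear state, 277 in sham and 231 in tenotomy, 16 of 36 were at least 2-fold higher, against 7.10% of genes, 27 at least 1.5-fold, against 18.8%, and 0 2-fold lower, against 7.76%. At least 2-fold higher in both Smoc2-type and Pi16-type cells were 5 members: Fkbp10, Fkbp11, Pdia6, Sec61b and Ssr4. The share of all genes past this limit in both states is not given here, so this overlap has no background beside it. Fkbp11 went from 14.4 to 74.5 CPM in Smoc2-type and from 9.03 to 57.3 CPM in Pi16-type cells, 5.18-fold and 6.35-fold. Ssr4 had the highest within-state folds among the translocation members, at 2.65 and 2.71 against 3.52 over the class. Sec61b was at 2.58 and 2.45 against 5.41. Creld2, in contrast, was at 1.25 and 0.956 against 2.84, and Hspa5 at 0.774 and 0.992. Crtap was at 1.58 (1.38 to 1.81) within Smoc2-type cells, against 1.40 over the class. Creld2 in Pi16-type cells had an interval of 0.581 to 1.52.

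**Figure D4:**
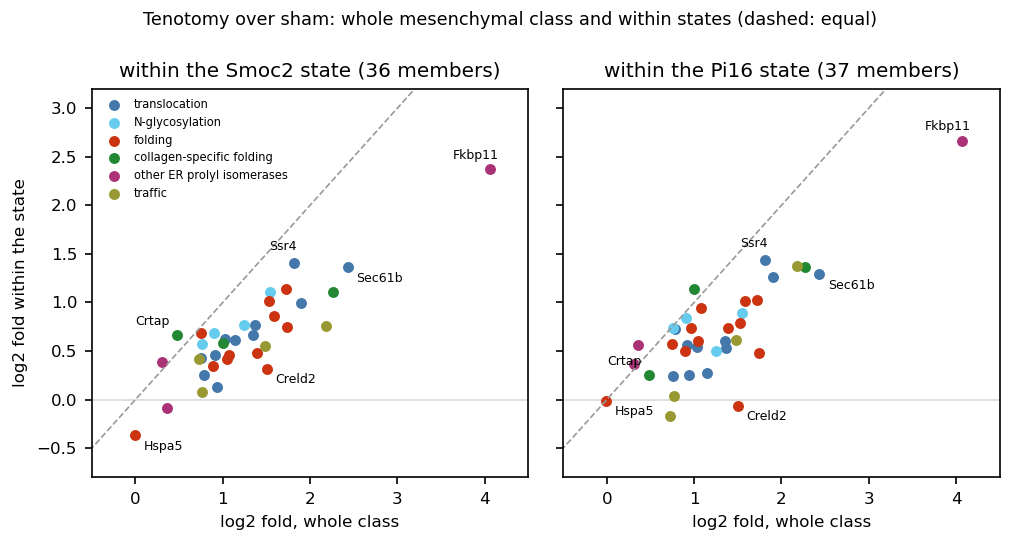
Log2 fold of each measured member over the whole mesenchymal class (x axis) against its log2 fold within Smoc2-type (left) and Pi16-type cells (right), coloured by role, with the dashed line where both are equal. Most points lie below the line, Fkbp11 stays highest in both panels, and Hspa5 lies at or below 0.

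Among mesenchymal cells of the tenotomy library, the activated state was compared with Smoc2-type cells. Here 6 of 37 members were at least 2-fold higher, against 3.76% of 5454 genes, 16 at least 1.5-fold, against 14.2%, and 0 2-fold lower, against 5.67%. Cycling cells over Smoc2-type cells had 7 of 37, against 8.53% of 5579 genes, 22 at least 1.5-fold, against 24.0%, and 0 2-fold lower, against 8.23%. Fkbp11 was at 230 CPM in activated and 256 CPM in cycling cells, against 74.5 CPM in Smoc2-type cells of the same library. Sec61b was at 876 and 882 CPM, against 372 CPM. Crtap was lower in both, at 112 and 103 CPM against 130 CPM. Depth moved with state: the medians were 6171 UMIs in Smoc2-type, 17331 in activated and 25375 in cycling cells, and its part in these differences was not tested.

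The class itself carried its defining markers in both libraries, with 11 of 11 detected and a sum of 38942 CPM in sham and 21931 CPM in tenotomy. Macrophage markers in it went from 55.1 to 176 CPM and neutrophil markers from 52.6 to 120 CPM, with all 10 and all 13 detected in both, and their part in the member folds was not tested. In Leiden clusters made without the members, cluster 35 held 67.8% of the class in tenotomy, while clusters 7 and 6 held 44.1% and 26.4% of it in sham.

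Muscle stem cell-like cells, 388 in sham and 393 in tenotomy, had members at least 2-fold higher at about the share of all genes. They were 9 of 33 measured members, against 27.5% of 5418 genes, while 17 were at least 1.5-fold higher, against 40.2%. The median log2 fold was 0.62 for the members and 0.30 for all genes. At least 2-fold lower were 2, against 13.9%. Summed, the members went from 0.725% to 0.686% of UMIs. Depth moved with the library here too, with medians of 6016 UMIs per cell in sham and 15391 in tenotomy. Sec61b went from 94.6 to 264 CPM (2.79-fold, 2.45 to 3.2), Rpn1 from 40.1 to 104 CPM (2.60-fold, 2.12 to 3.21), Spcs2 to 2.32-fold and Ssr2 to 2.30-fold. Fkbp10 was at 12.5 and 35.3 CPM (2.83-fold, 1.96 to 4.20), from 33 and 246 UMIs. P4hb was 1.85-fold, Crtap 1.18-fold (0.863 to 1.64) and Hsp90b1 1.10-fold (1.04 to 1.16). Fkbp7 went the other way, from 93.1 to 29.2 CPM (0.313-fold, 0.259 to 0.379).

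Hspa5 was where this class stood apart. It was at 3103 CPM in sham, the highest Hspa5 level among the classes with at least 50 cells in either library, and at 883 CPM in tenotomy, a fold of 0.285 (0.275 to 0.294). It held 58.2% of the folding UMIs in sham and 23.5% in tenotomy. In tenotomy 222 of the 393 cells carried at least 2 cycle UMIs, against 3 in sham. In the remaining cells Hspa5 was at 3121 CPM in sham against 1352 CPM in tenotomy, and in the cycling tenotomy cells at 723 CPM. All 11 immediate early and heat shock genes were at least 2-fold lower in this class, with a sum of 13964 CPM in sham and 2021 CPM in tenotomy, and of 13 measured unfolded protein response genes 7 were at least 2-fold lower and 1 at least 2-fold higher. The part of these in the Hspa5 value was not tested. Myofibre markers went in sum from 104 to 611 CPM, with 8 of 8 detected in both libraries, and 84.2% of tenotomy cells were in cluster 31 while 99.2% of sham cells were in cluster 22.

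Across classes the sham order of Hspa5 was muscle stem cell-like, monocyte/macrophage-like (1556 CPM), blood endothelial-like (1455), tenocyte-like (1406), mesenchymal progenitor-like (1389), pericyte or smooth muscle-like (1082), glial-like (930), neutrophil-like (646) and myofibre-like cells (178). The interval of tenocyte-like cells overlapped those of both neighbours in this order, and those of pericyte or smooth muscle-like and glial-like cells overlapped each other. In tenotomy the order began with mesenchymal progenitor-like (1385), pericyte or smooth muscle-like (1342), tenocyte-like (1337) and blood endothelial-like cells (1294). Intervals of neighbours among these 4 classes overlapped. The mesenchymal level differed between the libraries by less than counting error, while the levels of muscle stem cell-like, monocyte/macrophage-like and blood endothelial-like cells were lower in tenotomy. Of all 37 members, 32 were highest in mesenchymal progenitor-like cells among 12 classes with at least 50 cells in the tenotomy library. In sham, among 9 such classes, 4 were highest there, 17 in tenocyte-like cells and 8 in glial-like cells. Glial-like cells, 34 in tenotomy, were not among the 12 classes. The share of all genes highest in each class was not computed.

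Tenocyte-like cells, the fibroblasts of tendon, 354 in sham and 130 in tenotomy, already carried many members at a high level in sham. The summed share was 0.826% in sham and 1.02% in tenotomy, 1.23-fold (1.20 to 1.26). At least 2-fold higher was 1 of 36 measured members, Fkbp11, against 4.32% of 5326 genes, 9 were at least 1.5-fold, against 13.9%, and 0 were 2-fold lower, against 5.91%. Fkbp11 went from 29.6 to 62.5 CPM (2.11-fold, 1.52 to 2.91). Ssr4 (1.94-fold), P4hb (1.91), Rpn1 (1.88) and Calr (1.82) followed. Hsp90b1 was at 1.41 (1.30 to 1.54), Sec61b at 1.5 (1.34 to 1.68), Fkbp10 at 1.43 (1.15 to 1.76) and Hspa5 at 0.951 (0.895 to 1.01). The lowest were Fkbp9, from 528 to 368 CPM (0.697-fold, 0.622 to 0.779), Fkbp7 (0.679), Fkbp14 (0.670) and Sec24d (0.754). Crtap was at 188 and 167 CPM (0.888, 0.746 to 1.05), the highest level of Crtap in each library among classes with at least 50 cells. Matrix cargo genes summed to 84759 CPM in sham and 55620 CPM in tenotomy, and tenocyte markers, 8 of 8 detected in both, to 21417 and 17590 CPM. Of other markers, those of mesenchymal progenitors went from 30025 to 21955 CPM (11 of 11 detected in both), of neutrophils from 28.4 to 250 CPM (10 and 13 of 13), of macrophages from 104 to 213 CPM (10 of 10 in both) and of muscle stem cells from 431 to 231 CPM (7 and 8 of 10). Their part in the folds was not tested.

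Pericyte or smooth muscle-like cells, 190 in sham and 121 in tenotomy, went from 0.448% to 0.751% of UMIs in the members. At least 2-fold higher were 8 of 36 measured members, against 6.57% of 5980 genes, 26 were at least 1.5-fold, against 16.0%, and 0 were 2-fold lower, against 9.48%. The count was 2 with classes taken from Leiden clusters, 3 with cells thinned to 1000 UMIs and 5 with each cell weighted equally. Fkbp10 was at 5.28 and 44.0 CPM (8.33-fold, 3.1 to 28.0), from only 5 and 23 UMIs, and Sdf2l1 at 7.24-fold, from 5 and 20 UMIs. Ssr4 went from 105 to 294 CPM (2.82-fold, 2.17 to 3.66), Manf from 127 to 289 CPM (2.28-fold, 1.78 to 2.92), P4hb to 2.23-fold and Sec61b to 2.10-fold. Hsp90b1 was 1.95-fold, Crtap 1.81-fold (1.10 to 2.98) and Hspa5 1.24-fold (1.13 to 1.37). Markers of other classes moved in both directions. Mesenchymal markers went from 950 to 2543 CPM (11 and 10 of 11 detected) and macrophage markers from 46 to 451 CPM (7 and 10 of 10 detected). Blood endothelial markers went from 2486 to 1233 CPM and erythroid markers from 96.1 to 26.8 CPM. The markers of the class itself went from 21743 to 12770 CPM. In tenotomy Fkbp10 stood at 19.0% of its mesenchymal level, and the mesenchymal markers Lum and Dcn at 4.91% and 2.31% of theirs. Postn stood at 13.7%, Col1a1 at 8.37% and Pdgfra at 0%. In sham Postn stood at 911% of its mesenchymal level. The part of RNA from other classes in the folds was not tested.

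Blood endothelial-like cells, 3328 in sham and 1542 in tenotomy, went from 0.486% to 0.659% of UMIs, 1.35-fold (1.34 to 1.37). Of 31 measured members 1, Ssr4, was at least 2-fold higher, against 5.48% of 5726 genes. At least 1.5-fold higher were 15, against 15.5%, and 0 were 2-fold lower, against 5.27%. Ssr4 went from 140 to 302 CPM (2.15-fold, 2.02 to 2.30). Canx was 1.97-fold (1.83 to 2.11), Manf 1.81, Sec61b 1.78 and P4hb 1.6, with Hsp90b1 at 1.36 and Crtap at 1.49. Hspa5 was the 1 member below 1, at 1455 and 1294 CPM (0.890, 0.867 to 0.913). Fkbp10 and Fkbp11 lay under the limit of 20 CPM on average. Fkbp10 was at 3.21 CPM in sham against 28.0 CPM in tenotomy (8.75-fold, 6.20 to 12.6) and Fkbp11 at 2.27 and 19.2 CPM (8.45-fold, 5.60 to 13.1). Fkbp10 was thus at 6.66% of its mesenchymal level in sham and 12.1% in tenotomy, where Lum stood at 0.634% and 0.871%. Mesenchymal markers summed to 277 CPM in sham and 276 CPM in tenotomy in this class, all 11 detected in both, and macrophage markers to 57 and 252 CPM. Cluster 2 held 65.4% of its tenotomy cells, and sham cells were mostly in clusters 3 (34.8%), 1 (30.2%) and 0 (24.7%).

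In immune cells the summed members were near the sham level. In monocyte/macrophage-like cells, 369 in sham and 4627 in tenotomy, 0 of 28 measured members were at least 2-fold higher, against 5.03% of 5323 genes, 4 at least 1.5-fold, against 14.1%, and 0 2-fold lower, against 6.14%. The share went from 0.591% to 0.633%. Rpn1 was 1.62-fold (1.41 to 1.88), Ssr4 1.57, Sec61b 1.52 and Tram1 1.47. P4hb was 1.25-fold, Hsp90b1 1.18-fold and Hspa5 0.667-fold (0.646 to 0.689), from 1556 to 1038 CPM, and 10 of 11 immediate early and heat shock genes were at least 2-fold lower. The collagen-specific members were too low to be measured, with Crtap at 12.9 and 11.3 CPM and Fkbp10 at 1.11 and 2.46 CPM. Cluster 12 held 79.1% of the sham cells of this class and 17.6% of its tenotomy cells. Clusters 14 and 15 held 26.8% and 25.3% of its tenotomy cells, and the part of this makeup in the folds was not tested.

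In neutrophil-like cells, 66 in sham and 536 in tenotomy, 0 of 27 measured members were at least 2-fold higher, against 4.09% of 4500 genes, 3 at least 1.5-fold, against 14.0%, and 0 2-fold lower, against 1.44%. The share was 0.487% and 0.475%. P4hb was 1.61-fold (1.23 to 2.14), Dad1 1.53 and Sec61a1 1.81 (1.01 to 3.53). Sdf2l1 (0.65), Hspa5 (0.782) and Calr (0.836) had intervals below 1, while Sec61b (1.01) and Hsp90b1 (0.887) had intervals that included 1. Fkbp10 and Crtap had at most 3 UMIs in either library. Myofibre-like cells, 62 in sham and 80 in tenotomy with medians of 1822 and 1426 UMIs, gave only 409 and 608 member UMIs. There 6 of 16 measured members were at least 2-fold higher, against 18.5% of 1749 genes, 9 at least 1.5-fold, against 32.0%, and 0 2-fold lower, against 11.3%. The highest were Manf at 7.53 (2.92 to 24.7), Pdia6 at 3.99, Calr at 3.80, Sec61b at 2.51, Canx at 2.28 (1.10 to 5.01) and Sec61g at 2.15. The count was 1 with thinned cells, 10 with no filter on low values, and 12 and 15 with unscaled class rules. The measured members and the share of all genes under these settings are not given here. These counts therefore cannot be set against the 16 measured members or the 18.5% of genes. Canx was at 0.890 with Leiden classes. Hsp90b1 was at 1.92 (1.10 to 3.41), P4hb at 1.41 (0.708 to 2.84) and Hspa5 at 1.33 (0.834 to 2.12), and Fkbp10 and Crtap had at most 2 UMIs in either library. Mesenchymal markers in this class went from 4148 to 302 CPM (11 and 8 of 11 detected), and their part was not tested.

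**Figure D5:**
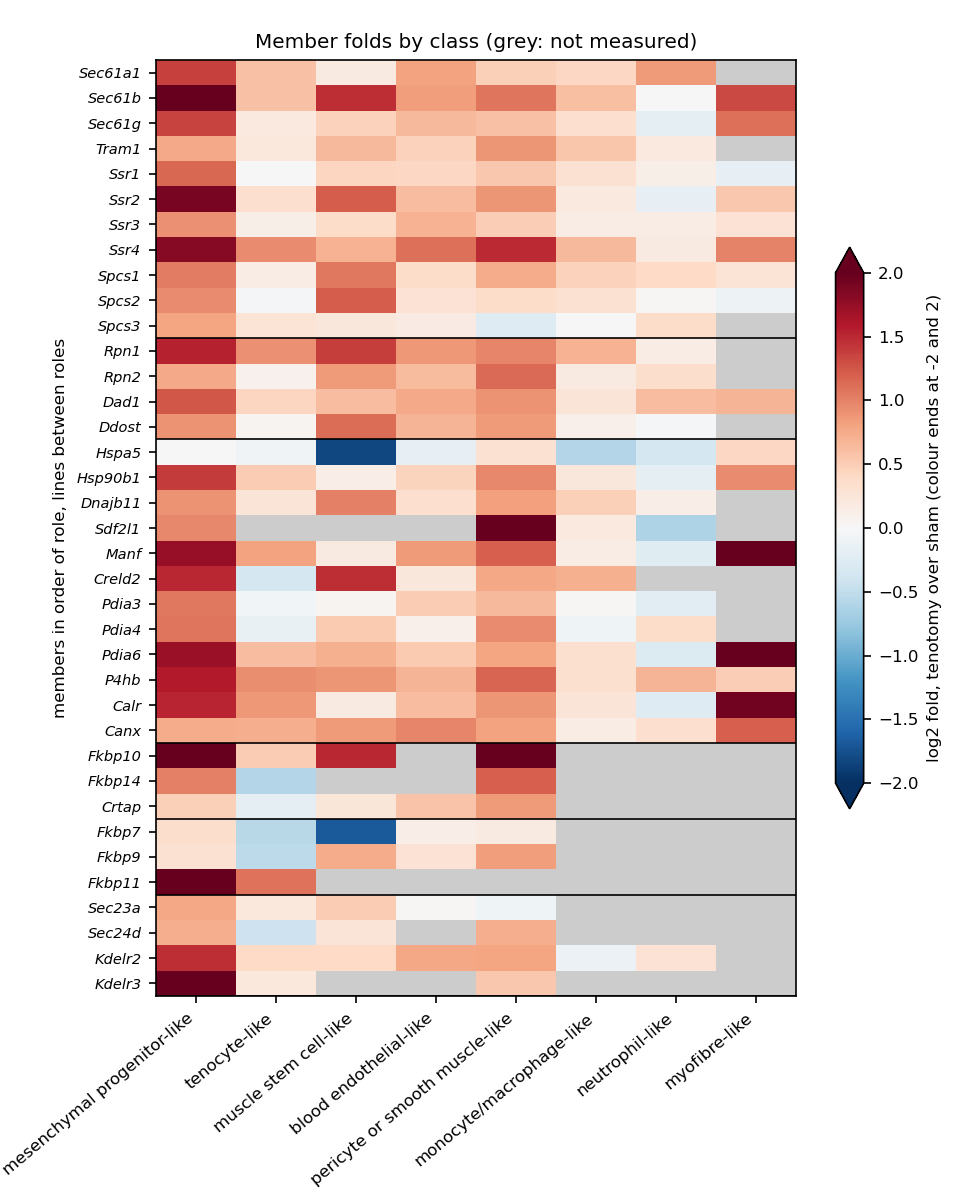
Log2 fold, tenotomy over sham, of each member (rows, in order of role with lines between roles) in each compared class (columns), with red higher, blue lower, colours ending at -2 and 2, and grey for members not measured in the class. The first column is red throughout but for Hspa5, the Hspa5 row is bluest in muscle stem cell-like cells (0.285-fold), and the collagen-specific rows (Fkbp10, Fkbp14, Crtap) are grey in the last 3 columns.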

How the data were processed

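Living mononuclear cells of plantaris muscle were profiled in 1 pooled sham and 1 pooled tenotomy library with 10x Chromium 3' chemistry, per the labels' protocols. The deposited values are whole-number UMI counts per gene and cell barcode. The authors made these counts with Cell Ranger 4.0.0 and the mm10 build, per the submitters' processing notes. The sources used here do not name the annotation release. Of 32285 gene identifiers, 32158 matched a symbol.

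From these counts, barcodes were kept from 300 genes and 500 UMIs upward if mitochondrial UMIs were no more than 10%. Doublets were scored with scrublet in scanpy 1.11.5. Its automatic threshold called 1 sham and 320 tenotomy cells, so the tenotomy threshold of 0.212 was used for both, which removed 190 (2.46%) and 320 (2.85%). Classes came from fixed markers: each marker's log value was scaled to its 95th percentile, at least 3 markers had to be detected, and the second class could reach at most 0.75 of the best. This left 521 sham (6.90%) and 1010 tenotomy cells (9.25%) with no class. 207 and 256 assigned cells had a ratio over 0.65, and 199 and 184 cells lay between 0.75 and 0.85. The scaling was added once after class cell counts were seen, because the unscaled form at 0.75 left 79 and 72 muscle stem cell-like cells with no class. Cycling cells had at least 2 UMIs over 12 cycle genes. Other states needed at least 3 marker UMIs and at least 2 times those of the next state, a rule set after the files were seen. As an alternative, cells were placed in 37 Leiden clusters without the members and pathway lists, and 98.3% of 16306 cells named by both ways had the same name.

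UMIs were summed per class and library. Folds have exact conditional binomial 95% intervals and levels exact Poisson 95% intervals, for counting error only. With 1 library per group no test was run, and the size rule was a fold of 2. Each list is described by its counts and median beside those of all measured genes. The code was tested on simulated data. All members are named in the mesenchymal class. In other classes the named ones are the 4 highest and the 4 lowest folds with an interval that leaves out 1, ranked by the bound nearest to 1, plus Hspa5, Hsp90b1, P4hb, Sec61b, Fkbp10 and Crtap. From each pathway list the named genes are the 2 largest folds each way at or past 2-fold. Other genes given (Asns, Chac1, Trib3, Ero1b, Serpinh1, Atf4, Xbp1, Herpud1, Hyou1, Edem1, Ier3, and Fkbp11 outside the mesenchymal class, and Canx in myofibre-like cells) were chosen after their values were seen. The members and lists were chosen with earlier results of these data known. Ddit3 matched more than 1 identifier and was not used. Classes and states under 50 cells in either library were not compared. Promoter windows came from RefSeq.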

Additional observations from a re-analysis of the deposited data

How the results depend on the processing

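No paired analysis was possible because each group is 1 pooled library. For the same reason no replicate could be left out, and depth per cell, library and treatment cannot be told apart. The 22 members at least 2-fold higher in mesenchymal progenitor-like cells were 7 within Smoc2-type and 9 within Pi16-type cells. Under every other alternative at the 2-fold limit they were at least 16, and at a limit of 1.5-fold the count was 33. Of these 22, 21 had a fold above 1 under all 13 alternatives, the exception being Creld2 within Pi16-type cells (0.956), and 5 were at least 2-fold throughout. The median log2 fold of translocation members was 0.94 with each cell weighted equally, 0.92 with cells thinned to 1000 UMIs, 0.93 without cycling cells, 0.62 within Smoc2-type and 0.56 within Pi16-type cells. That of folding members was 1.04, 1.05, 1.05, 0.48 and 0.67 under the same settings, and 1.08 with P4hb moved out. That of collagen-specific members was 1.28 in thinned cells, 1.29 with P4hb, 0.66 within Smoc2-type and 1.14 within Pi16-type cells.

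At a limit of 1.5-fold the counts were 9 in tenocyte-like, 17 in muscle stem cell-like, 15 in blood endothelial-like, 26 in pericyte or smooth muscle-like, 4 in monocyte/macrophage-like and 3 in neutrophil-like cells. The main counts at 2-fold were 1 in tenocyte-like, 9 in muscle stem cell-like, 1 in blood endothelial-like, 8 in pericyte or smooth muscle-like, 0 in monocyte/macrophage-like, 0 in neutrophil-like and 6 in myofibre-like cells. Except within states and at 1.5-fold, counts under alternatives, here and above, are given without the share of all genes. They show how a count moved and not how the members stood against all genes. The counts that follow are again at 2-fold. With each cell weighted equally they were 2 in tenocyte-like, 0 in blood endothelial-like, 5 in pericyte or smooth muscle-like and 3 in neutrophil-like cells. With thinned cells they were 2, 0, 3 and 3 in these classes, 1 in monocyte/macrophage-like and 1 in myofibre-like cells. Without the filter on low values they were 2 in tenocyte-like, 4 in blood endothelial-like, 2 in monocyte/macrophage-like, 1 in neutrophil-like and 10 in myofibre-like cells. Centring on the median of all genes gave 4 in muscle stem cell-like cells, where that median was 0.30 on the log2 scale. Leiden classes gave 2 in pericyte or smooth muscle-like cells and turned Canx in myofibre-like cells to 0.890-fold. Leaving out cycling cells gave 2 in neutrophil-like cells. The unscaled class rule gave 0 in tenocyte-like and 12 in myofibre-like cells at 0.6, and 15 in myofibre-like cells at 0.75. The within-state, shared-barcode and unscaled alternatives were chosen after seeing the data. For single members, 2340 alternative values moved little, 413 moved beyond their counting interval and 2, the values of Creld2 and Canx given above, were labelled as reversed. That label did not take in every fold that crossed 1. In mesenchymal progenitor-like cells Fkbp7 was at 1.28 over the class and 0.939 within Smoc2-type cells. Sec24d was at 1.65 over the class and 0.889 within Pi16-type cells. Apart from the construction of each alternative, the cause was not tested.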
